A study of Mus musculus with 4 samples.

Results

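Interleukins, the cytokines of the IL-6 family, their receptors, and the STAT and SOCS genes that act below them were examined in mouse triple-negative breast tumors. The list holds 49 genes, of which 44 were measured among 17097 genes on the array. They comprise 18 ligands and inhibitors, 21 receptor chains, and 5 STAT and SOCS genes. Members were chosen by gene symbol, as probe sets whose only annotated symbol is a listed gene, and a gene with more than 1 probe set is represented by its brightest, judged by the average of all 4 arrays. Il27, Osm, Il1rl1, Il2rg and Il11ra1 were not analysed here. The tumors were 4T1Ch9, a cherry-tagged TNBC cell line of Balb/c background, grown from 50000 cells injected into the mammary fat pad of female Balb/c mice (6 to 8 weeks of age per the methods) and established for 10 days. For 7 days the mice then received the vehicle (polyethylene glycol and solutol) or trametinib at 1 mg/kg a day, a drug that blocks MEK1 and MEK2 (MEKi). Whole-tumor RNA was measured on Affymetrix expression arrays, 2 for each group and 4 in all, and all values are log2 expression made by the authors with RMA, a method that corrects background and summarises the probes of a set. Whether arrays of 1 label were made from different mice is not stated in the sources used here. The spread that p-values measure is that between these arrays, and it may not be that between mice. Every tumor in both groups was grown from this 1 cell line in wild-type hosts.

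Most interleukins and the IL-6 family signal through receptor chains that activate JAK kinases, which phosphorylate STAT transcription factors, and SOCS proteins, induced by STATs, shut the receptors off again. The IL-1 family and TNF instead act through adaptor proteins that lead to NF-kB and MAP kinases. In tumors these cytokines are made by, and act on, cancer cells, fibroblasts, myeloid cells and lymphocytes alike, so the same receptor list marks very different cells. In RNA of a whole tumor, fewer cells of a type and less RNA per cell cannot be told apart.

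The arrays did not group as their labels do. Pearson's r across 45037 probe sets, given as a description, was 0.992 for the array labelled MEKi 1 with that labelled vehicle 2 and 0.978 for MEKi 2 with vehicle 1. It was 0.927 for the 2 MEKi arrays and 0.959 for the 2 vehicle arrays. Most genes of B cells, T cells and lymph node stroma separated the arrays in the same way. The summed level of 9 measured B cell markers was 14.29 and 8.55 in MEKi 1 and 2, and 9.24 and 13.83 in vehicle 1 and 2, and 8 of the 9 in MEKi 2 and 7 of the 9 in vehicle 1 read under 5, which is called close to the floor here (the 25th percentile of an array was 3.85 to 3.88). That of 9 T cell markers was 13.29, 8.65, 9.53 and 13.22 in the same order, and that of 8 lymph node stroma and high endothelial venule genes 13.63, 10.35, 10.10 and 13.40. Ltbr and Vcam1 of the last list were instead highest in MEKi 2 and lowest in MEKi 1, with 7.82, 9.20, 9.10 and 8.07 for Ltbr. These genes added most to the sums of that list in MEKi 2 and vehicle 1. The B cell gene Pax5 read under 5 in every array. The summed level of 10 tumor epithelial markers was 12.18, 13.10, 14.08 and 13.17, and 6 of the 10, among them Krt19, Krt7 and Epcam, were lowest in MEKi 2, while the other 4, Krt8, Krt18, Cldn7 and Elf3, were lowest in MEKi 1. The labels of some arrays may have been exchanged, and these values do not show whether they were. Every difference by label below rests on the labels as given and would change with them. Arrays are named by their labels, members that ranged by over 1 log2 unit are given with all 4 values, and the part of these cell types in the results was not tested.

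**Figure D1:**
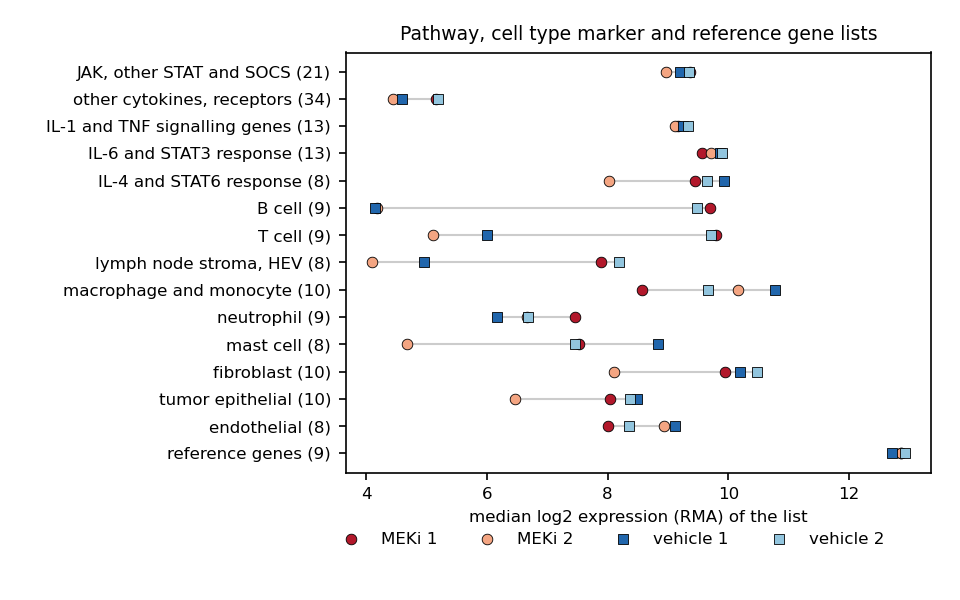
Median log2 expression (RMA, horizontal axis) of each pathway, cell type marker and reference gene list in each array, with the number of measured genes in parentheses. Circles are arrays labelled MEKi and squares arrays labelled vehicle, 1 point per array, and HEV stands for high endothelial venule. The B cell medians of MEKi 1 (9.70) and vehicle 2 (9.48) lie far to the right of those of MEKi 2 (4.17) and vehicle 1 (4.15).

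By label, no interleukin, receptor, STAT or SOCS gene passed the test between MEKi and vehicle. A gene was called where limma's two-sided p was under 0.05, the fold over 1.5 and the p after Benjamini-Hochberg adjustment across the whole array under 0.1. This called 0 of the 44 genes and 0% of all probe sets. At an unadjusted p under 0.05 there were 0 of the 44, against 0.901% (406) of all probe sets, and the lowest unadjusted p was 0.0764, for Lifr. Every member had an adjusted p of 1 with limma. The log2 fold changes ran from −1.13 for Stat4 to 1.12 for Il1r2, with 21 above 0 and 23 below, and their median was −0.03 against 0.01 over all genes. The paper reports many genes as altered by MEKi in these tumors at the same thresholds. Among them it names the members Tnf, Stat4 and Il27ra as upregulated. By the labels as given, their log2 fold changes were −0.08, −1.13 and −0.20. Why the results differ was not tested.

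The gaps between arrays of 1 label were the larger part of the variation. The median absolute difference over the 44 genes was 0.89 between the 2 MEKi arrays and 0.74 between the 2 vehicle arrays, against 0.29 between the means of the labels. Only for Lif, Lifr, Stat3 and Socs3 was the difference by label larger than both gaps within a label, which is 4 of 44 against 12.4% of all genes. The MEKi arrays both lay above the vehicle arrays in 6 of the 44, which are these 4, Il1r2 and Il12b, against 11.0% of all genes. They both lay below in 2, Il4ra and Il24, against 10.2% of all genes. These shares were near or under those of all genes. Between arrays of the same number the difference ran in opposite directions in 33 of the 44, against 69.4% of all genes.

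**Figure D2:**
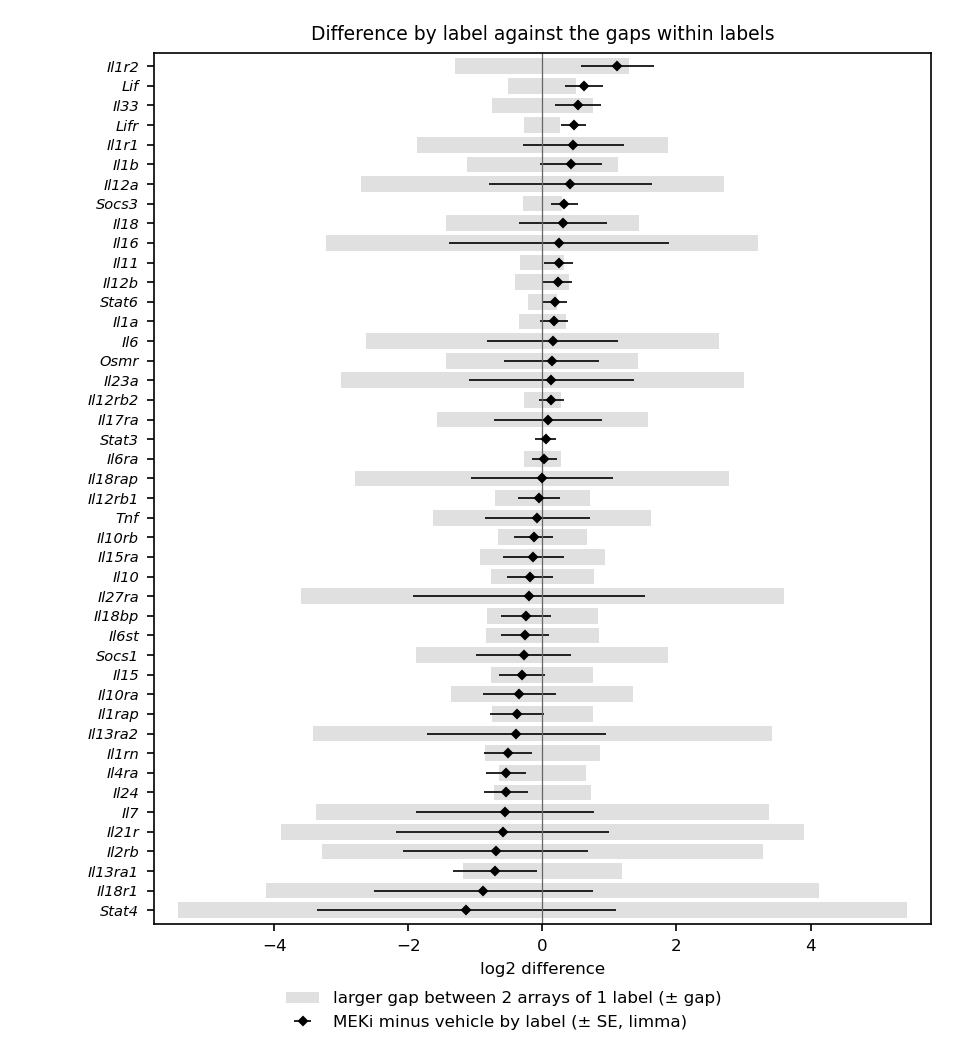
Log2 difference (horizontal axis) of MEKi minus vehicle by label for the 44 genes, as diamonds with bars of 1 SE from limma (2 arrays a group). Grey bars span plus and minus the larger of the 2 gaps within a label, and they enclose the diamond for every gene but Lif, Lifr, Stat3 and Socs3.

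Over the 4 arrays the members varied widely. The range over the 4 arrays was over 1 log2 unit in 27 of 44 genes, against 25.4% of all genes, over 2 in 13, against 8.43%, and over 3 in 9, against 2.88%. The median range was 1.14 against 0.55 over all genes. MEKi 1 had the highest reading in 24 of the 44 (24.9% of all genes), MEKi 2 in 10 (34.8%), vehicle 1 in 8 (20.1%) and vehicle 2 in 2 (20.2%). MEKi 2 had the lowest reading in 19 (27.2% of all genes), 13 of them receptors.

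Within the IL-6 family, the ligand gene Il6 varied more between arrays than the genes of its receptor chains. Il6, which encodes the cytokine that induces the acute-phase response, read 7.99 and 5.35 in MEKi 1 and 2, and 6.37 and 6.66 in vehicle 1 and 2. The 2 MEKi arrays thus held its highest and its lowest reading, and both vehicle readings lay between them. Its log2 fold change by label was 0.15 (SE 0.98, n = 2 arrays a group, limma adjusted p = 1). Il6ra, which encodes the IL-6 binding chain, read 9.38, 9.10, 9.20 and 9.22 in the same order, a range of 0.28. Il6st, which encodes gp130, the signaling chain shared by the whole family, read 10.59 and 9.75 in MEKi 1 and 2, and 10.30 and 10.55 in vehicle 1 and 2, so that only MEKi 2 stood lower. Il11, another ligand of gp130, ranged from 4.53 to 5.05, close to the floor.

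Lif and Lifr, a ligand and its receptor, both lay higher in the MEKi arrays on their brightest probe sets. Lif, a gp130 cytokine known for holding stem cells undifferentiated, read 6.15 and 6.66 in MEKi 1 and 2, and 5.99 and 5.58 in vehicle 1 and 2. Lifr, the receptor chain that binds it, read 10.13, 10.25, 9.59 and 9.86 in the same order. In both genes the MEKi arrays lay above the vehicle arrays, by a log2 fold change of 0.62 (SE 0.29) for Lif and 0.47 (SE 0.19) for Lifr, and neither passed (limma adjusted p = 1 for both). Both further probe sets of Lif ran the other way by label, with every reading between 3.57 and 4.22, and with the mean of all its probe sets the log2 fold change of Lif was 0.11. Without MEKi 2 that of Lif was 0.36. Both further probe sets of Lifr had the same sign by label as the first, but the labels overlapped on both, with MEKi 1 under vehicle 1. The brighter of them read 6.79 and 7.40 in MEKi 1 and 2, and 6.92 and 7.02 in vehicle 1 and 2. Osmr, the receptor chain for oncostatin M and the neighbor of Lifr among the protein-coding genes of chromosome 15 (GRCm38.p6), differed from it. Osmr read 9.84 and 11.27 in MEKi 1 and 2, and 11.02 and 9.81 in vehicle 1 and 2, and on both of its further probe sets too MEKi 2 and vehicle 1 were the higher arrays, with 5.77, 8.41, 7.92 and 5.98 on the brighter of them.

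Below the receptors, Stat3 was the flattest member and Stat4 the most variable. Stat3, the main STAT of IL-6 signaling, read 11.01 and 11.00 in MEKi 1 and 2, and 10.95 and 10.96 in vehicle 1 and 2, a range of 0.06. Stat6, which carries IL-4 and IL-13 signals, read between 8.31 and 8.69. Stat4, which carries IL-12 signals in T and NK cells, read 9.51 and 4.08 in MEKi 1 and 2, and 6.55 and 9.30 in vehicle 1 and 2, and as its lowest reading is near the floor the range of 5.44 is a lower bound. Its log2 fold change by label was −1.13 (SE 2.23, limma adjusted p = 1). Socs3, the feedback inhibitor that IL-6 induces through STAT3, read 10.06, 9.77, 9.67 and 9.51, with a log2 fold change of 0.33 (SE 0.20, limma adjusted p = 1). Socs1, an inhibitor of interferon and cytokine receptors, read 7.98, 6.10, 7.36 and 7.28, so that MEKi 2 stood lowest and the vehicle arrays lay between the MEKi arrays.

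The promoters of Il6 and Socs3 are shown because Il6 ranged by 2.63 log2 units over the arrays and Socs3, its feedback gene, by 0.55. They are the 250 bases before the RefSeq start, on the strand of the gene, at chr5:30012864-30013113 (plus strand) for Il6 and chr11:117969367-117969616 (minus strand) for Socs3, in GRCm38.p6. Capitals mark matches to a STAT motif (TTCNNNGAA), an AP-1 motif (TGANTCA), a kappaB motif (GGNNTTTCC) and a C/EBP motif (TTGCNNAA), searched on both strands.
Il6: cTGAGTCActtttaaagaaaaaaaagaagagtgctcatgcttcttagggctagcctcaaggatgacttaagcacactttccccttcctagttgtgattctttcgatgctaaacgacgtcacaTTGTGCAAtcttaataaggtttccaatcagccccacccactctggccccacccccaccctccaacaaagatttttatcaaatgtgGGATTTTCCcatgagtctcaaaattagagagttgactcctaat
Socs3: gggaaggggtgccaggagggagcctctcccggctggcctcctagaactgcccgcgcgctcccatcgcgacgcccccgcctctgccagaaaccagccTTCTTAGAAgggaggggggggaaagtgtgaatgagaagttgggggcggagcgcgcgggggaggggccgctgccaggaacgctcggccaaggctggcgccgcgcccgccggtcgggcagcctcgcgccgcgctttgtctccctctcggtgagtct
In Il6 the matches are AP-1, C/EBP and kappaB in that order towards the start, and in Socs3 there is 1 STAT match. No matches overlap. Of 32851 RefSeq promoter windows of this length, 7.02% hold the STAT motif, 6.75% the AP-1 motif, 4.93% the kappaB motif and 9.56% the C/EBP motif. Of 51 windows of the 36 listed genes that had one, 4 held the STAT motif, 8 the AP-1 motif, 4 the kappaB motif and 6 the C/EBP motif. A match is a description of the letters only.

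Several receptor genes that T and NK cells use had wide ranges. Il18r1, the IL-18 binding chain, read 8.92 and 4.79 in MEKi 1 and 2, and 6.90 and 8.56 in vehicle 1 and 2. Il21r, the receptor of the T helper cytokine IL-21, read 8.51, 4.61, 6.24 and 8.07 in the same order. Il2rb, the chain shared by IL-2 and IL-15, read 9.27, 5.98, 7.42 and 9.23. In these 3 genes MEKi 1 and vehicle 2 were high, vehicle 1 was intermediate and MEKi 2 was lowest. For Il18r1 and Il21r the MEKi 2 reading was under 5, close to the floor, so its differences to the other arrays are lower bounds. Il18rap, the second chain of the IL-18 receptor, read 8.30, 5.51, 6.62 and 7.20. Outside this group, Il13ra2, a decoy receptor for IL-13, had a MEKi 2 reading close to the floor as well. It read 7.97, 4.54, 6.03 and 7.25, with the same order of arrays. The T cell markers were ordered likewise, with a summed level of 13.29, 8.65, 9.53 and 13.22, and their part in these values was not tested.

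Il27ra and Il17ra split the arrays into 2 pairs. Il27ra, the IL-27 receptor of T and B cells, read 8.89 and 5.28 in MEKi 1 and 2, and 5.76 and 8.79 in vehicle 1 and 2. Il17ra, a widely expressed chain of the IL-17 receptors, read 10.17, 8.71, 8.57 and 10.15. In both genes MEKi 2 and vehicle 1 lay close together and well under the other arrays. Il10ra, the IL-10 binding chain of leukocytes, read 8.72, 7.37, 8.19 and 8.59, lowest in MEKi 2.

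Il18r1 and Il18rap lie in a row of IL-1 receptor family genes on chromosome 1, after Il1r2, Il1r1 and Il1rl1, with 1 other protein-coding gene among them. Of these, Il18r1 and Il18rap had the same order of arrays and were lowest in MEKi 2, where Il1r1 and Il1r2 were highest. Il1r2 and Il1r1 are described with their ligands. Of the 3 annotated starts of Il18r1, the promoter of the third, at chr1:40465756-40466005 (plus strand, GRCm38.p6), is shown because it holds 2 STAT matches, in capitals.
Il18r1: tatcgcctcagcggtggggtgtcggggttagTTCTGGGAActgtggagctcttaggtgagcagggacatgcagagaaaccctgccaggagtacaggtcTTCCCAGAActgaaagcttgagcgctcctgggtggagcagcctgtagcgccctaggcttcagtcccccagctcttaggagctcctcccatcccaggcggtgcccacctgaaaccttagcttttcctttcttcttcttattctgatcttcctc
The windows of the other Il18r1 starts held none of the 4 motifs. The Stat4 and Il18r1 readings had the same order of arrays, which is given as a description. It was not particular to them. Il6, Il6st, Il7, Il2rb, Il21r, Il18rap, Il13ra2, Il10ra and Il27ra, among others, had this order too. A link between Stat4 and Il18r1 was not tested.

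Genes of IL-1 receptors on stromal and myeloid cells ran in other orders. Il1r1, the signaling receptor for IL-1, read 9.23 and 11.10 in MEKi 1 and 2, and 10.07 and 9.33 in vehicle 1 and 2, so that it was highest where the T cell receptors named above were lowest. Il1r2, a decoy receptor that neutrophils carry, read 7.98, 8.54, 6.49 and 7.79. Only vehicle 1 stood low, both MEKi arrays lay above both vehicle arrays, and the log2 fold change was 1.12 (SE 0.54, limma adjusted p = 1). It was 0.47 without vehicle 1 and 1.77 without vehicle 2. The neutrophil genes S100a8 and S100a9 ran the same way by label, with 9.99, 11.10, 6.17 and 7.70 for S100a8, and 7 of 9 neutrophil markers had a fold change above 0. Ltf and Mmp9 ran the other way, with log2 fold changes of −1.25 and −2.18. Mmp9 read 7.37, 8.89, 11.23 and 9.39. The summed level of the 9 markers, to which Mmp9 adds most in vehicle 1, was 11.90, 12.76, 11.69 and 10.89. The part of these markers in the Il1r2 values was not tested. Il1rap, the accessory chain of the IL-1, IL-33 and IL-36 receptors, read 7.00, 7.68, 8.10 and 7.35.

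Among the ligands of the IL-1 family, Il18 had the widest range, of 1.51, and Il1b, Il1rn and Il33 ranged by 1.18, 1.06 and 1.07. Il1b, the inflammatory form made by activated myeloid cells, read 8.54 and 9.67 in MEKi 1 and 2, and 8.86 and 8.49 in vehicle 1 and 2, and its log2 fold change by label was 0.43 (SE 0.46, limma adjusted p = 1). Only MEKi 2 stood apart, by 0.81 or more. Il1a, its neighbor on chromosome 2, ranged from 5.66 to 6.06. Il1rn, the natural antagonist of the receptor, read 6.73, 6.98, 7.80 and 6.94 and was highest in vehicle 1, as it was with each of its 3 probe sets. Il33, a nuclear alarmin of stromal and endothelial cells, read 10.68, 10.35, 9.61 and 10.37, lowest in vehicle 1. Il18 read 9.82, 8.86, 8.31 and 9.75, with its soluble inhibitor Il18bp between 7.82 and 8.68.

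Il16, Il7, Il12a and Tnf had high readings in the arrays labelled MEKi 1 and vehicle 2. Il16, a chemoattractant made by lymphocytes, read 10.94 and 7.83 in MEKi 1 and 2, and 7.52 and 10.74 in vehicle 1 and 2, and its other probe set was also high in these arrays. Il7, a survival factor for naive T cells made by lymphoid stroma, read 7.73, 4.36, 5.98 and 7.24. Il12a, the IL-12 p35 subunit, read 6.39, 3.69, 3.68 and 5.57. MEKi 2 and vehicle 1 lay at the floor for Il12a, so its differences to the other arrays are lower bounds, and for Il7 the same holds of MEKi 2. Tnf, the inflammatory cytokine, read 6.31, 5.01, 4.92 and 6.55, with a log2 fold change of −0.08 by label (SE 0.78, limma adjusted p = 1). The sign of that difference rests on single arrays, at 0.58 without MEKi 2 and 0.74 without vehicle 2.

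Il23a ran against Il12a, another gene of the IL-12 family. Il23a, the IL-23 p19 subunit, read 4.24 and 7.25 in MEKi 1 and 2, and 6.35 and 4.87 in vehicle 1 and 2. It was thus near the floor in the arrays where Il12a was high, and high where Il12a was at the floor. Il12b, the p40 subunit that both cytokines need, read 4.36, 3.96, 3.92 and 3.94, all under 5. Il24, of the IL-10 family, read 3.84, 4.15, 4.90 and 4.18, also under 5 throughout, and the order of its labels carries little weight this close to the floor. Il10 ranged from 4.24 to 5.02.

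**Figure D3:**
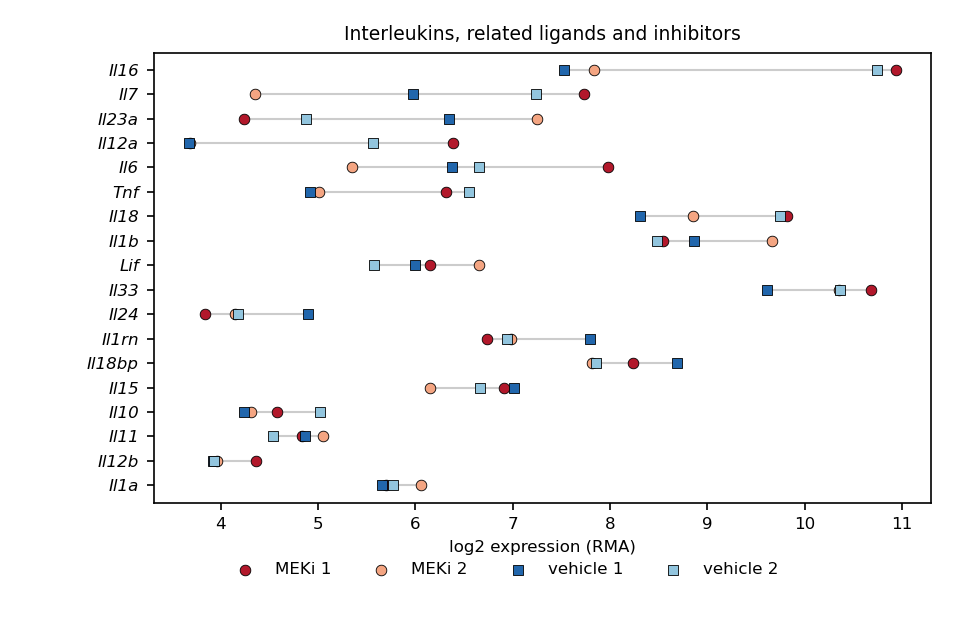
Log2 expression (RMA, horizontal axis) of the 18 measured ligand and inhibitor genes in each array, 1 point per array, ordered by range from top to bottom. Circles are arrays labelled MEKi and squares arrays labelled vehicle, and lines join the lowest and highest reading. Il16 is high in MEKi 1 (10.94) and vehicle 2 (10.74) and low in MEKi 2 (7.83) and vehicle 1 (7.52), and Il23a runs the other way.

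The receptors of IL-4, IL-13 and IL-15 completed the list. Il4ra, the binding chain of IL-4, read 8.09 and 7.44 in MEKi 1 and 2, and 8.42 and 8.19 in vehicle 1 and 2, and was below the vehicle arrays in both MEKi arrays, by −0.54 on the log2 scale (SE 0.30, limma adjusted p = 1). The MEKi 1 and vehicle 2 readings lay close together, and the gap rests mostly on MEKi 2. Il13ra1, its partner chain, read 7.67, 8.81, 9.54 and 8.35, lowest in MEKi 1 and highest in vehicle 1, and 4 of its 5 probe sets ranged by over 1 log2 unit. Il15 ranged from 6.15 to 7.01 and its receptor Il15ra from 7.67 to 8.62. Il10rb, Il12rb1 and Il12rb2 had ranges of 0.66, 0.71 and 0.27, the last of them under 5 in every array.

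**Figure D4:**
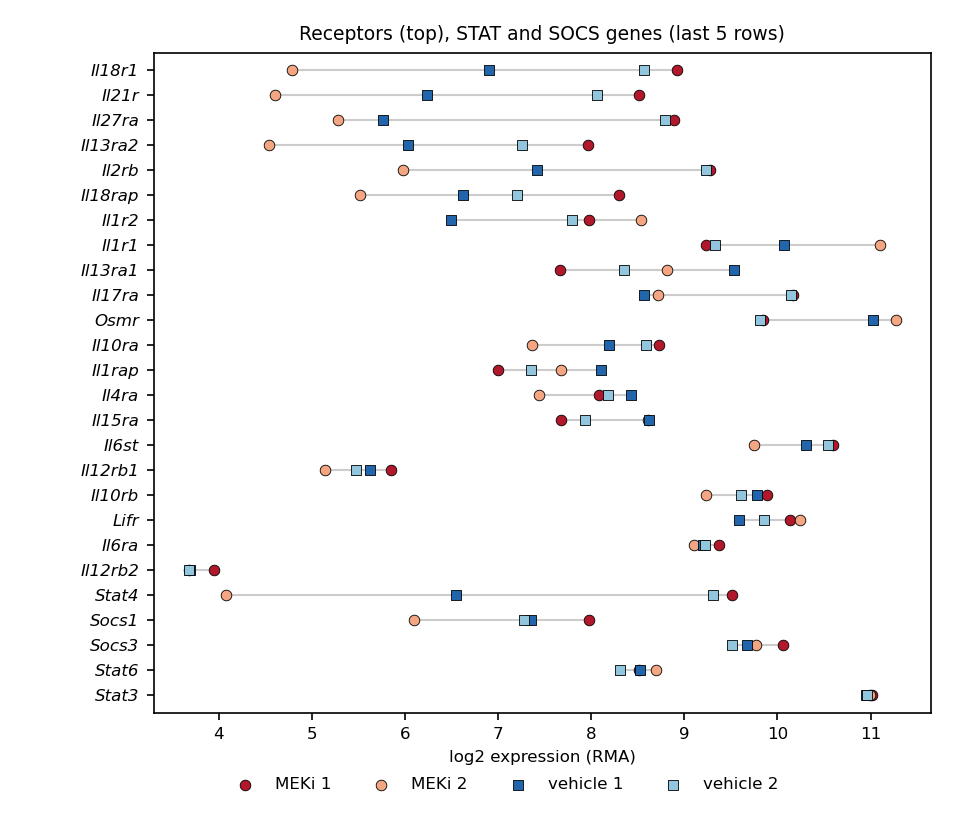
Log2 expression (RMA, horizontal axis) of the 21 measured receptor genes and, in the last 5 rows, the STAT and SOCS genes, each set ordered by range, 1 point per array. Circles are arrays labelled MEKi and squares arrays labelled vehicle. Stat4 spans 4.08 to 9.51, while the 4 points of Stat3 overlie each other between 10.95 and 11.01.

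Single arrays were also set against each other, without a test. Between MEKi 1 and vehicle 1, 16 of the 44 genes were higher by over 1 log2 unit (6.67% of all genes) and 6 lower (8.74%). Between MEKi 2 and vehicle 2, 5 were higher (8.25% of all genes) and 15 lower (9.15%). The signs of the list thus differed with the number of the array. Within a label, 15 genes were higher (9.55% of all genes) and 5 lower (10.3%) in MEKi 1 than in MEKi 2, and 3 were higher (5.81%) and 13 lower (5.84%) in vehicle 1 than in vehicle 2. Across labels, MEKi 1 exceeded vehicle 2 in 2 genes (0.287% of all genes), Il6 and Il18rap, and was lower in 0 (0.831%). MEKi 2 exceeded vehicle 1 in 2 genes (2.26%), Il1r1 and Il1r2, and was lower in 9 (4.34%).

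Those 9 genes were Il2rb, Il6, Il7, Il13ra2, Il18r1, Il18rap, Il21r, Stat4 and Socs1. In the same pair of arrays the summed level of T cell markers was 8.65 in MEKi 2 against 9.53 in vehicle 1. The summed level of mast cell markers was 8.96 against 11.89, with 6 of 8 under 5 in MEKi 2 and 0 of 8 in vehicle 1, and that of fibroblast markers was 13.97 against 14.92. Also lower in MEKi 2 were the sums of tumor epithelial (13.10 against 14.08) and macrophage and monocyte markers (13.84 against 14.64). Those of B cell (8.55 against 9.24) and endothelial markers (11.59 against 11.89) were lower too. Neutrophil markers (12.76 against 11.69) and lymph node stroma genes (10.35 against 10.10) were higher. Which cells carried the 9 genes was not tested.

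Other genes of these pathways did not pass by label either, with limma calling 0 in each list. Of 21 JAK, other STAT, SOCS and regulator genes, 9 had a log2 fold change above 0 and 12 below (median −0.03). Ptpn6, which encodes the phosphatase SHP-1 of blood cells, read 11.31 and 9.35 in MEKi 1 and 2, and 9.78 and 11.07 in vehicle 1 and 2, the widest range of this list. The feedback inhibitor gene Socs2 read 10.09, 8.47, 9.24 and 9.49 and the kinase gene Tyk2 8.71, 7.16, 8.25 and 8.70, both lowest in MEKi 2. Of 34 other cytokine and receptor genes, 10 were above 0 and 24 below (median −0.11). In every array, 12 of them read less than 1 log2 unit above 3.88, the highest 25th percentile of an array. Il2ra, the high-affinity IL-2 receptor chain, read 6.89, 4.07, 4.75 and 6.32. Il20rb, a receptor chain for IL-20 family cytokines, ran the other way, with 5.51, 8.36, 8.26 and 6.22. So did Ctf1, which encodes the gp130 ligand cardiotrophin-1, with 5.34, 7.77, 6.69 and 5.64.

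Of 13 IL-1 and TNF signaling genes, 8 were above 0 and 5 below (median 0.04). Irak3, an inhibitor of IL-1 receptor signaling, had the widest range, with 7.51 and 5.21 in MEKi 1 and 2, and 6.35 and 7.30 in vehicle 1 and 2. Tnfaip3, an inhibitor of NF-kB, read 10.15, 9.01, 9.25 and 9.98, and Casp1, the protease that matures IL-1b and IL-18, read 9.75, 10.61, 10.44 and 9.48. Of 13 IL-6 and STAT3 response genes, 5 were above 0 and 8 below (median −0.08). Lbp, an acute-phase protein that binds bacterial lipopolysaccharide, read 8.23, 12.90, 9.57 and 8.82, and Lcn2, an iron-trapping acute-phase protein, read 9.87, 12.37, 11.88 and 10.25. Both were highest in MEKi 2, as were Cebpb, Myc and Saa3 of this list. Bcl3, Pim1, Lrg1, Hp, Junb, Cebpd and Mcl1 were lowest in MEKi 2, as Il6 was. The remaining gene, Timp1, was highest in vehicle 1. In Junb and Cebpd, unlike in Il6, MEKi 1 read close to MEKi 2, and both lay below both vehicle arrays. Cebpd read 9.13, 9.03, 9.76 and 9.78 (log2 fold change −0.69, SE 0.16). Hp, which encodes haptoglobin, read 9.56, 8.99, 11.05 and 10.28, with both MEKi arrays below both vehicle arrays (log2 fold change −1.39, SE 0.39, limma adjusted p = 1).

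Of 8 IL-4 and STAT6 response genes, 7 had a log2 fold change below 0 (median −1.38), and 0 were called. Retnla, an IL-4 induced gene of macrophages, read 10.25 and 8.64 in MEKi 1 and 2, and 12.10 and 12.39 in vehicle 1 and 2, a log2 fold change of −2.80 (SE 0.62, limma adjusted p = 1). Ccl22, a chemokine of dendritic cells and macrophages, read 9.76, 5.49, 8.07 and 9.82, lowest in MEKi 2. Fcer2a, which is also a B cell marker, read 9.15, 3.89, 3.82 and 9.48. The summed level of 10 macrophage and monocyte markers was 13.40, 13.84, 14.64 and 13.95, and 9 of the 10 had a fold change below 0. The list and these markers, which share Mrc1, thus had the same sign by label. That sign was not particular to these markers. It was shared by 9 of 9 T cell, 8 of 8 endothelial and 9 of 10 tumor epithelial markers. The same held for 8 of 10 fibroblast, 7 of 8 mast cell and 6 of 8 lymph node stroma genes. Among B cell and neutrophil markers it was 3 of 9 and 2 of 9. The part of any of these cells in the values was not tested.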

How the data were processed

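Gene expression in 4T1Ch9 tumors was measured on 4 arrays of 1 color. The log2 values deposited by the authors were made with RMA per the labels, with quantile normalization in the AFFY package per the methods. No version of RMA or AFFY and no filter are given in the sources used here. After 104 control probe sets were removed from 45141, the platform annotation gave 1 symbol for 28898 of the remaining 45037, more than 1 for 551 (left unnamed) and no symbol for 15588. By Entrez identifier, 28689 were found in the RefSeq gene table (GRCm38.p6), and 0 symbols changed. The number of arrays limits the precision, and levels of different probe sets were not compared.

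Groups follow the labels. The labels MEKi and vehicle were compared with limma 3.58.1 (lmFit, eBayes; R 4.3.3), the tool of the study, with Benjamini-Hochberg adjustment over 45037 probe sets. The script was tested on simulated data. A summed level is the log2 of a list's summed linear values. Members with a range over 1 log2 unit, and Il6, Il6ra, Il6st, Stat3, Socs3, Il1b and Tnf, are given for each array, with the 3 widest genes of each pathway list. Marker lists are given by their sums, with a few of their genes, some named after their values were seen. Lifr, Il4ra, Il12b and Il24 are also given, because their labels did not overlap. Members and lists were chosen with earlier results of these data known. Same-numbered arrays deviated from their group means in opposite ways (r = −0.76 across probe sets), so the numbers were not taken as pairs. The fit was repeated with a stricter adjusted p (0.05), a trend of variance with intensity, unmoderated variances, the dimmest 0.25 of probe sets removed, centring on reference genes or on medians, a replicate block, each array removed, and either the mean or 1 of a gene's probe sets. Promoters are from RefSeq. Python 3.11.15, pandas 2.3.3, numpy 2.4.6 and matplotlib 3.10.9 were used.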

Additional observations from a re-analysis of the deposited data

How the results depend on the processing

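The count of called genes stayed at 0 for the members and for all probe sets under every alternative run with limma, while between 80 (without vehicle 1) and 2027 (without MEKi 1) probe sets had an unadjusted p under 0.05, against 406 with all arrays. With the replicate block, 0 members were called and the members' median log2 fold change was again −0.03, with 267 probe sets at an unadjusted p under 0.05, and the block changed no call. With the crossed pairing of numbers, chosen after seeing the data, 0 were called and 1447 probe sets had an unadjusted p under 0.05. Leaving out 1 array moved the members' median from −0.39 (without MEKi 1) to 0.32 (without MEKi 2), and turned the sign of 30 of 44 members in at least 1 case. The log2 fold changes by label then ran from −1.16 to 1.47 for Il6, −0.11 to 0.16 for Il6ra, −0.67 to 0.17 for Il6st, −0.13 to 0.99 for Il1b, −0.89 to 0.74 for Tnf, with 0.58 without MEKi 2, and −3.85 to 1.59 for Stat4, with 0.24 without vehicle 2. Centring on reference genes turned Il6ra to −0.017. The members' median was also above 0 when arrays were centred on their medians (0.03) and without vehicle 2 (0.11). Without 1 array in turn, Il1r2 ran from 0.47 to 1.77, Lif from 0.36 to 0.87, Lifr from 0.33 to 0.60, Socs3 from 0.18 to 0.47, Il12b from 0.03 to 0.43, Il4ra from −0.87 to −0.22 and Il24 from −0.91 to −0.18. With the mean of a gene's probe sets, Lif was 0.11 and Il12b 0.08. With 2 arrays a group, leaving 1 out assumes that the lone array varies like the other group. The cause of the sign changes was not tested. Of the members, 17 have several probe sets, and in 6 of them (Il1rap, Il7, Il10rb, Il12b, Il17ra and Lif) another probe set had the opposite sign by label. Between 5 and 10 members read under 5 in an array, where differences are compressed by the floor.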
